A study of Mus musculus with 6 samples.

Results

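The genes described here encode the subunits of the proteasome, the protease complex that degrades ubiquitin-tagged proteins, measured in embryonic pre-B cells with and without the chromatin protein Smchd1. They were chosen by name alone, as every gene symbol on the array that reads Psma, Psmb, Psmc, Psmd or Psme followed by digits only, which gave 43 of 30774 symbols and 75 of 45281 probes. The probe with the brightest mean stands for its gene, taken from those with a detection p below 0.05 on 3 or more of the 6 arrays. That left 37 of the 43 genes, among 11402 genes tested in all.

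Total RNA was measured on 6 Illumina MouseWG-6 v2 bead arrays. There were 3 arrays of Smchd1 null cells, homozygous for a gene trap allele of Smchd1, and 3 arrays of Smchd1 wildtype cells. All cells were pre-B cells, sorted from E17.5 embryos of C57BL/6 background, and both groups carried the Eµ-Myc transgene, which puts the Myc oncogene under an immunoglobulin heavy chain enhancer active in the B lineage. The wildtype group is thus a Myc-transgenic one. Neither the organ nor the gate used for sorting is in the labels, nor whether the arrays come from different embryos, and the p-values therefore cover only the spread between these samples, which may be technical. All values are normalized log2 intensities of a probe, and a level on this scale is compared only between arrays of the same probe.

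The 26S proteasome has a barrel-shaped core, the 20S particle, built from outer rings of alpha subunits (Psma genes), which gate the entrance, and inner rings of beta subunits (Psmb genes), some of which cut proteins. A 19S cap of ATPases (Psmc genes) and other subunits (Psmd genes) recognises ubiquitin, unfolds the substrate and feeds it into the barrel. In lymphoid cells and after interferon, the catalytic beta subunits are exchanged for the immunoproteasome subunits Psmb8, Psmb9 and Psmb10, and the barrel can be capped by the PA28 activator of Psme1 and Psme2. The immunoproteasome is known for producing peptides that MHC class I molecules present.

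Smchd1 checked the labels. Its brightest probe lay at log2 intensities of 4.64, 5.03 and 4.96 in Smchd1 null replicates 1, 2 and 3, below detection on all 3 arrays, against 9.50, 9.65 and 9.67 in the wildtype replicates, at least 22.3-fold lower (limma adjusted p = 5.6e-05). Over 15878 tested probes, r between arrays was 0.984 to 0.994, but only 0.946 to 0.956 in the pairs that include Smchd1 null replicate 3. That array also stood apart in cell type markers. The summed intensity of 10 detected B lineage markers was 23800, 27300 and 78200 in the null replicates, against 26200 to 27500 in wildtype, with Cd79b, Vpreb1 and Vpreb3 among those detected and Pax5, Rag2, Dntt and Vpreb2 not. Summed myeloid markers were 1810, 2260 and 13000 in the null replicates, against 5000, 12700 and 13600 in wildtype (11 of 16 detected), so that null replicates 1 and 2 lay below every wildtype array, and without null replicate 3 all 11 were lower, none of them called, at a median of -2.18 on the log2 scale. The sum hides that these markers diverged on null replicate 3. Mpo, Prtn3, Ctsg, Csf1r and Cd68 lay above every wildtype array there, with Mpo at 12.06 against at most 9.83. Ltf, Ngp, S100a8, S100a9, Camp and Lyz2 lay within the wildtype range, all but Lyz2 below wildtype replicates 2 and 3. Summed hepatocyte markers ran from 302 to 947 in null and from 2390 to 3880 in wildtype (11 of 14 detected, Alb not, with 4 called lower in null, or 9 without null replicate 3). Erythroid markers ran from 15300 to 56400 in null and from 23200 to 38900 in wildtype (7 of 10), and T and NK cell markers from 264 to 651 in null and from 419 to 556 in wildtype (4 of 9, Cd3e not). In bulk RNA, fewer cells of a type and less RNA per cell cannot be told apart.

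No proteasome subunit transcript was called different between Smchd1 null and wildtype cells. None of the 37 subunit genes passed the threshold of an adjusted p under 0.05 in either direction by limma, where 0.0702% of all genes and 0.0567% of all probes did, and 0 of the 37 had an unadjusted p under 0.05, where 3.94% of all genes did. The changes were small, with a median log2 fold change of -0.08 between extremes of -0.44 and 0.31 and a median standard error of 0.14, beside a median of -0.01 and a median standard error of 0.19 over all genes. The adjusted p-values of the members lay between 0.934 and 0.995. For 26 of the 37 genes the whole 95% interval of the change lay within 1.5-fold of no change in either direction, and for 36 it lay within 2-fold. The exception, Psme4, had an interval that reached down to 0.453 of the wildtype level.

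Small as they were, the differences leaned one way. Smchd1 null was the lower group in 31 of the 37 genes, or 83.8%, where 52.7% of all genes were lower. Without Smchd1 null replicate 3 the count was 27 of 37, or 73%, with a median of -0.07, where 49.2% of all genes were lower. It was 25 of 37 without Smchd1 null replicate 2. The 37 values come from the same 6 arrays, so these counts are not counts of independent observations. Nor were members and all genes compared at equal brightness here. Array by array, each gene set against its wildtype mean, the median over the 37 genes was -0.03, -0.09 and -0.15 in the null arrays 1 to 3, beside 0.02, 0.03 and -0.04 in the wildtype arrays, so that null replicate 1 lay within the wildtype range. Smchd1 null replicate 3 was the lowest of the 6 arrays for 20 of the 37 genes, or 54.1%, where it was the lowest for 35.5% of all genes.

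**Figure D1:**
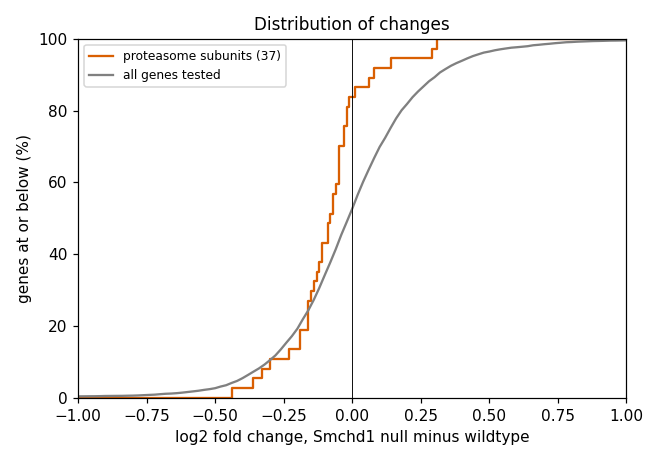
Cumulative share of genes, in percent, at or below each log2 fold change (Smchd1 null minus wildtype) for 37 proteasome subunit genes (orange steps) and all 11402 genes tested (grey line). The orange steps lie within -0.44 and 0.31, and 83.8% of them are below 0, where 52.7% of all genes are.

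The median spread between arrays was also small for these genes. The median SD over the 3 null arrays was 0.13, against 0.08 over the 3 wildtype arrays, where the medians of all genes were 0.26 in null and 0.14 in wildtype. Without replicate 3 the median SD of the members in null was 0.08. Members and all genes were not compared at equal brightness, and the spread varied among members with dim probes. In null and wildtype the SD was 0.50 and 0.41 for Psmc6 and 0.47 and 0.21 for Psmd2, but 0.13 and 0.14 for Psmd6. Each probe was read by 23 to 60 beads per array, and the median standard error over the beads of a probe was 3.19% to 4.27% of its intensity.

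The sets of catalytic subunits are the interchangeable part of the core. Psmb5, Psmb6 and Psmb7 carry the chymotrypsin-like, caspase-like and trypsin-like activities of the constitutive form, and Psmb8, Psmb9 and Psmb10 take their places in the immunoproteasome. The promoters of 5 of these 6 genes are shown because these are the exchange partners whose levels are given below. Each is the 250 bases before the gene start in RefSeq (GRCm38.p6), 5′ to 3′ on the strand of the gene, and Psmb7 is not in that table. Capitals mark matches on either strand to motifs that were searched, which are the core of the antioxidant response element bound by Nrf1 and Nrf2 (TGACNNNGC), the E-box bound by Myc (CACGTG), the interferon gamma activated site (TTCNNNGAA), the core of the interferon stimulated response element and the CCAAT box (CCAAT).
Psmb8, chr17:34197945-34198194 (+ strand): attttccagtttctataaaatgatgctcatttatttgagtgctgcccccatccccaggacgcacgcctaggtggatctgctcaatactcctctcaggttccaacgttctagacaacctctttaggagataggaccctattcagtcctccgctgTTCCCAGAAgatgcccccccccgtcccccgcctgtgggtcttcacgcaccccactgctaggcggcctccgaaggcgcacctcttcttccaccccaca
Psmb9, chr17:34187331-34187580 (- strand): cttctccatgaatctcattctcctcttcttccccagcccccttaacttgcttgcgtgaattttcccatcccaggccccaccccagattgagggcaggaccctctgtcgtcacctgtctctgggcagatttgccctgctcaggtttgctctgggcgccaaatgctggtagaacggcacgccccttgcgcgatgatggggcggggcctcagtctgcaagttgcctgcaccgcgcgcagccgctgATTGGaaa
Psmb10, chr8:105938393-105938642 (- strand): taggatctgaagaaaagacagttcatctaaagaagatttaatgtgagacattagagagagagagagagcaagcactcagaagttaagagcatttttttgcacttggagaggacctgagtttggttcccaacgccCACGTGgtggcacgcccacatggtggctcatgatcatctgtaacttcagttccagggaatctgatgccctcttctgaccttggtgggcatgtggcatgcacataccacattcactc
Psmb5, chr14:54617996-54618245 (- strand): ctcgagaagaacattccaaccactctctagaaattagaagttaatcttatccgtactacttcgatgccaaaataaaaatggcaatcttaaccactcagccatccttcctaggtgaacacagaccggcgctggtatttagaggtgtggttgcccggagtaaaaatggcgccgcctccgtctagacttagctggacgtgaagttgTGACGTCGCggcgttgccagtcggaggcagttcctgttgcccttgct
Psmb6, chr11:70525107-70525356 (+ strand): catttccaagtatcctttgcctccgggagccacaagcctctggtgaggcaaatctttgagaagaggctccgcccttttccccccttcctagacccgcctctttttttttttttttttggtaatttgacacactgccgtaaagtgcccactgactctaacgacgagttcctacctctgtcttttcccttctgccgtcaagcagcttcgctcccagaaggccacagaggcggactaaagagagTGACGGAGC

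Psmb8 held 1 interferon gamma activated site, TTCCCAGAA, whose first base lay 97 bases before the gene start. Psmb10 held 1 E-box and Psmb9 1 CCAAT box, and Psmb5 and Psmb6 held 1 antioxidant response element core each, TGACGTCGC and TGACGGAGC. The 250 bases before Psme1 and Psme2 held none of the 5 motifs. Psmb9 is the neighbour of Tap1, a subunit of the transporter that carries peptides to MHC class I molecules, and the starts of these genes on opposite strands of chromosome 17 have 225 bases between them, so that the sequence shown for Psmb9 spans the whole shared interval. Of 36 members with a promoter in the table, 5 held the antioxidant response element core, 4 the E-box, 1 the interferon gamma activated site, 3 the interferon stimulated response element core and 14 the CCAAT box. These are 13.9%, 11.1%, 2.78%, 8.33% and 38.9% of the members' promoters, beside 10.2%, 6.02%, 7.02%, 2.98% and 33.8% of all 32851 promoter windows, and a match is a match of letters only.

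Psmb8, the immunoproteasome subunit that replaces Psmb5, had log2 intensities of 11.43, 11.47 and 12.24 in Smchd1 null replicates 1, 2 and 3, against 11.61, 11.27 and 11.34 in wildtype. Null replicate 3 was the highest array, and the other 2 null arrays lay within the wildtype range. The means were 11.72 ± 0.46 in null and 11.41 ± 0.18 in wildtype (SD, n = 3 each), and the log2 fold change was 0.31 (SE 0.24), by limma at an adjusted p of 0.934, with a 95% interval of -0.27 to 0.88, and it was 0.04 (SE 0.15) without null replicate 3. The second detected Psmb8 probe, at 8.13, 8.27 and 8.68 in null against 8.34, 7.77 and 7.92 in wildtype, had a log2 fold change of 0.35 (SE 0.22), so that both probes put null replicate 3 on top.

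Psmb9, the subunit that replaces Psmb6, had 9.61, 9.68 and 10.18 in Smchd1 null, against 9.56, 9.59 and 9.44 in wildtype. All 3 null arrays were above all 3 wildtype arrays, by a margin of hundredths for null replicate 1, and replicate 3 was again the highest. It is the 1 member of the 37, or 2.7%, whose groups did not overlap with null on top, where 4.67% of all genes were so. The log2 fold change was 0.29 (SE 0.18, adjusted p = 0.934), or 0.11 (SE 0.12) without null replicate 3. On the array of null replicate 3 the B lineage markers summed to 78200, and the part of this in the Psmb8 and Psmb9 values was not tested.

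Psmb10, the third exchange subunit, which replaces Psmb7, did not share this pattern. It had 11.88, 11.62 and 11.47 in Smchd1 null, against 11.91, 11.96 and 11.78 in wildtype, with null replicate 3 the lowest array and the groups overlapping by null replicate 1. The log2 fold change was -0.23 (SE 0.16, adjusted p = 0.934), and -0.20 on its second probe, and it was -0.14 (SE 0.14) without null replicate 3. Null replicate 3 thus lay 0.79 above the mean of the other null arrays for Psmb8 and 0.53 above it for Psmb9, but at -0.28 relative to it for Psmb10.

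The constitutive partners differed by at most 0.14 on the log2 scale. Psmb5 had 10.50, 10.61 and 10.43 in Smchd1 null, against 10.48, 10.28 and 10.35 in wildtype, a log2 fold change of 0.14 (SE 0.14). It was the only one of the constitutive core subunits tested with a positive value, which turned to -0.08 with the arrays scaled to the median of all probes, where the median of all tested probes moved to -0.18. Without null replicate 3, which was the lowest null array, its groups did not overlap (0.18, SE 0.13, limma adjusted p = 0.87). In that setting the groups of 22.5% of all genes did not overlap. Psmb6 had 12.22, 12.14 and 12.51 in null, against 12.32, 12.47 and 12.22 in wildtype (log2 fold change -0.05, SE 0.16), and Psmb7 had 12.28, 12.12 and 12.14 in null, against 12.27, 12.18 and 12.42 in wildtype (-0.11, SE 0.14). For both genes the groups overlapped. Psmb6 was highest of the 6 arrays on null replicate 3, at 0.34 above the mean of the other null arrays, with wildtype replicate 2 close behind at 12.47. Null replicate 3 was the highest array for 6 of the 37 members, or 16.2%, where it was the highest for 29.6% of all genes. The 4 tested Psmb7 probes ran from -0.14 to 0.06.

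The groups overlapped for both PA28 activator subunits. Psme1, PA28 alpha, had 11.58, 11.83 and 11.56 in Smchd1 null, against 11.63, 11.84 and 11.64 in wildtype (log2 fold change -0.05, SE 0.15), and its second probe had 0.01. Psme2, PA28 beta, had 8.97, 8.59 and 8.77 in null, against 8.95, 8.73 and 8.87 in wildtype (-0.07, SE 0.16). Neither gene followed the order of arrays seen for Psmb8 and Psmb9. Over the 5 immunoproteasome genes, 2 were higher and 3 lower with none called, and the median was -0.05, or 0.00 without null replicate 3.

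**Figure D2:**
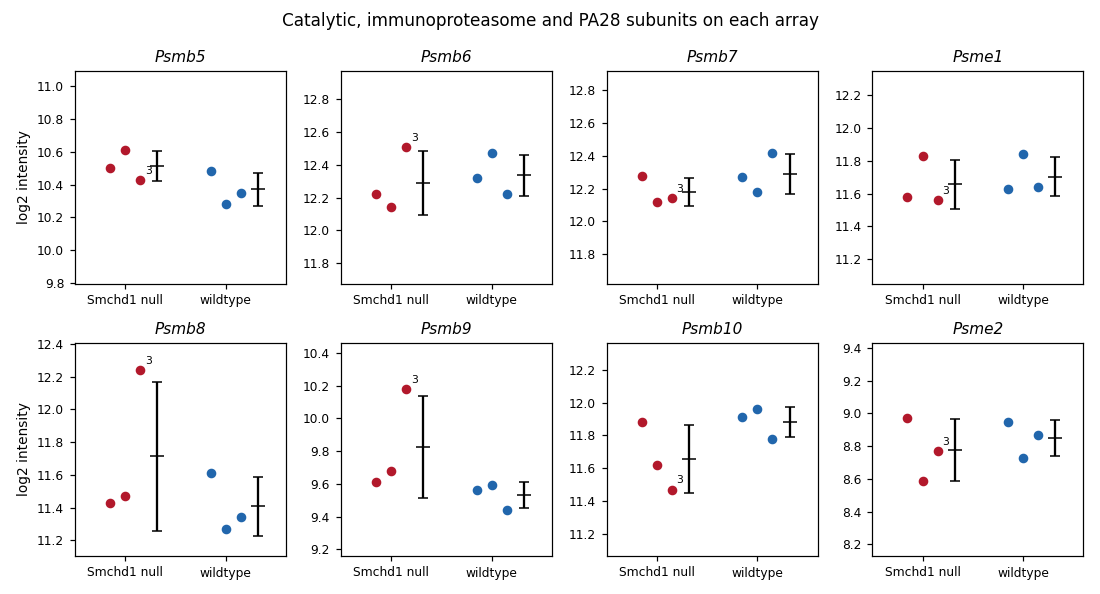
Normalized log2 intensity of each array for the constitutive catalytic subunits, the immunoproteasome subunits and the PA28 subunits, with Smchd1 null in red left of wildtype in blue and mean ± SD (n = 3) in black. Null replicate 3, marked 3, reaches 12.24 for Psmb8 and 10.18 for Psmb9 and is the lowest array for Psmb10, at 11.47.

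In the core rings, the groups stood apart in 2 of the 4 alpha ring genes and 2 of the 7 constitutive beta ring genes. Smchd1 null was always lower and by little, where 4.96% of all genes stood apart in that direction. Over all 37 members, 2 stood apart with null lower when the detected probes of each gene were averaged. It was also 2 with the arrays scaled to the median of all probes. Psma5 had 13.39, 13.39 and 13.05 in null, against 13.42, 13.53 and 13.46 in wildtype (log2 fold change -0.19, SE 0.15). Psma7 had 12.26, 12.24 and 12.22 in null, against 12.45, 12.39 and 12.35 in wildtype (-0.16, SE 0.13), and -0.12 on its second probe. Among these genes Psma7 is the one whose 3 null arrays lay closest together, with an SD of 0.02.

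In the beta ring, Psmb1 had 12.13, 12.06 and 11.92 in null, against 12.14, 12.24 and 12.14 in wildtype (-0.14, SE 0.14), and Psmb2 had 12.81, 12.77 and 12.62 in null, against 12.91, 12.85 and 12.90 in wildtype (-0.15, SE 0.13). The second tested Psmb2 probe had -0.05. Without null replicate 3 the log2 fold changes of these 4 genes lay between -0.15 and -0.08. The other ring members without a catalytic site were nearer 0, with Psma2 at -0.01, Psma4 at -0.03, Psmb3 at -0.02 and Psmb4 at -0.09. The medians were -0.09 for the 4 alpha ring genes, all lower, and -0.09 for the 7 constitutive beta ring genes, 6 of them lower, and no gene of either ring was called.

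Counting all classes, the groups did not overlap for 7 of the 37 genes, or 18.9%, with Psmb9 higher and 6 genes lower in Smchd1 null, where 9.64% of all genes were so placed. The count depends on the choices made. It was 3, or 8.11%, when the detected probes of each gene were averaged, where 10% of all genes stood apart, and 2, or 5.41%, with the arrays scaled to the median of all probes, where 5.42% did, so that in both settings the members' share was no higher than that of all genes. Leaving out an array can only keep or raise such a count, for any gene. It was 16, 11 and 12 without null replicate 1, 2 or 3 (43.2%, 29.7% and 32.4% of the members, beside 27.2%, 19.8% and 22.5% of all genes), and 14, 7 and 12 without wildtype replicate 1, 2 or 3 (37.8%, 18.9% and 32.4%, beside 18.5%, 16.1% and 15.3%). The other 2 of the 6 lower genes are subunits of the 19S lid, Psmd11 and Psmd12.

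The 6 ATPases of the 19S base, which unfold substrates, all had groups that overlapped, with log2 fold changes from -0.12 for Psmc2 to 0.06 for Psmc6 and a median of -0.06, 5 of them negative and none called. Psmc1 had -0.07, Psmc3 -0.05, Psmc4 -0.02 and Psmc5 -0.11, each with a standard error of 0.13 or 0.14. The second Psmc4 probe had 0.23 (SE 0.16), whereas the second probes of Psmc2 and Psmc5 had -0.04 and -0.09. Psmc6, whose probe was dim at 6.22, 6.02 and 5.28 in Smchd1 null against 6.11, 5.90 and 5.31 in wildtype, had the widest interval of them, from -0.65 to 0.78. Both replicates numbered 3 were its low arrays.

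The 13 tested Psmd genes, non-ATPase subunits and chaperones of the 19S cap, had 11 lower and 2 higher values, a median of -0.09 and none called. Psmd12, a scaffold subunit of the lid, had the smallest unadjusted p of all members at 0.0802. Its values were 10.97, 10.82 and 10.52 in Smchd1 null, against 11.15, 11.05 and 11.09 in wildtype, which makes -0.33 on the log2 scale (SE 0.16, adjusted p = 0.934), or -0.20 (SE 0.12) without null replicate 3. Its second probe went the other way, at 0.11 (SE 0.18), so the lower level rests on 1 probe. Psmd11, another lid scaffold, had 8.78, 8.78 and 8.60 in null, against 9.04, 8.88 and 8.82 in wildtype (-0.19, SE 0.14), and its second probe had -0.25.

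Psmd7, the partner of the deubiquitinase Psmd14 in the lid, showed the widest disagreement between probes. The brightest had 12.21, 12.10 and 11.48 in Smchd1 null, against 12.34, 12.34 and 12.19 in wildtype (log2 fold change -0.36, SE 0.21), or -0.13 without null replicate 3, and its other probes had -0.07 and 0.26. On all 3 probes null replicate 3 was the lowest null array. Psmd14 itself, which removes ubiquitin chains at the entrance, had 0.01 and 0.02 on its probes.

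The remaining cap subunits were close to 0. The large scaffold Psmd1 had -0.06 (SE 0.13), and Psmd2, its counterpart, had -0.13 (SE 0.25) on a dim probe. Psmd4, a ubiquitin receptor, had -0.03 (SE 0.13). Psmd6, Psmd8 and Psmd13 had -0.16, -0.08 and -0.09. Of the assembly chaperones of the base, Psmd5 had -0.16, Psmd9 0.08 and Psmd10 -0.05. The second Psmd9 probe went the other way, at -0.22 (SE 0.17), on a similarly dim signal. Another Psmd10 probe, singled out after its values were seen, had 0.24, with all 3 null arrays (9.75, 9.61 and 9.87) above the wildtype arrays (9.51, 9.50 and 9.52). Of 20 members with more than 1 tested probe, the probes shared a sign in 11 and differed in 9, with a median range of 0.12 between probes of a gene.

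Psme3 and Psme4 encode nuclear activators of the core, PA28 gamma and PA200, which work without ubiquitin. Psme4 had the lowest fold change of all members. Its values were 11.78, 11.78 and 10.71 in Smchd1 null, against 11.70, 12.01 and 11.88 in wildtype, a difference of -0.44 on the log2 scale (SE 0.30, adjusted p = 0.934) with an interval of -1.14 to 0.26. It rests on null replicate 3, since without it the value was -0.08 (SE 0.14), and the second probe, at 5.84, 5.82 and 4.95 in null against 5.67, 5.97 and 5.68 in wildtype, was not above background on null replicate 3.

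Psme3 had 9.98, 10.06 and 9.42 in null, against 10.02, 10.15 and 10.18 in wildtype (-0.30, SE 0.20), and -0.10 without null replicate 3. For both genes the 2 other null arrays lay at or near the wildtype values. Null replicate 3 differed from the mean of the other null arrays by more than 0.5 on the log2 scale in 6 members, higher in Psmb8 and Psmb9 and lower in Psmc6, Psmd7, Psme3 and Psme4. These are 16.2% of the members, where 35% of all genes differed by as much.

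**Figure D3:**
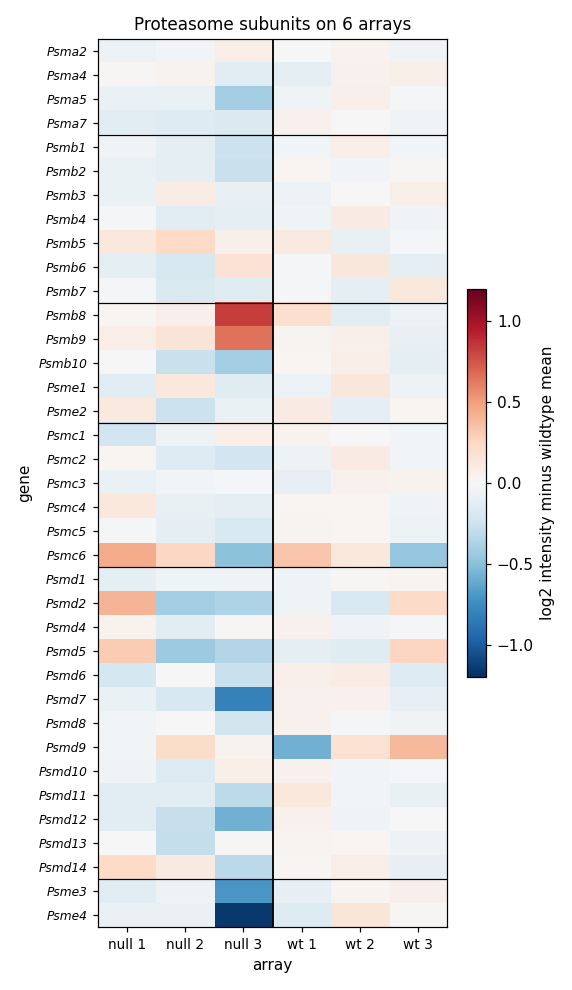
Log2 intensity of 37 proteasome subunit genes on the 3 Smchd1 null arrays and the 3 wildtype (wt) arrays, each minus the mean of the wildtype arrays, with red for higher and blue for lower. Rows run from the 20S alpha ring through the beta ring, the immunoproteasome, the 19S ATPases and the 19S non-ATPases to Psme3 and Psme4, and the strongest colours, for Psmb8, Psmb9, Psmd7, Psme3 and Psme4, sit in null replicate 3.

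**Figure D4:**
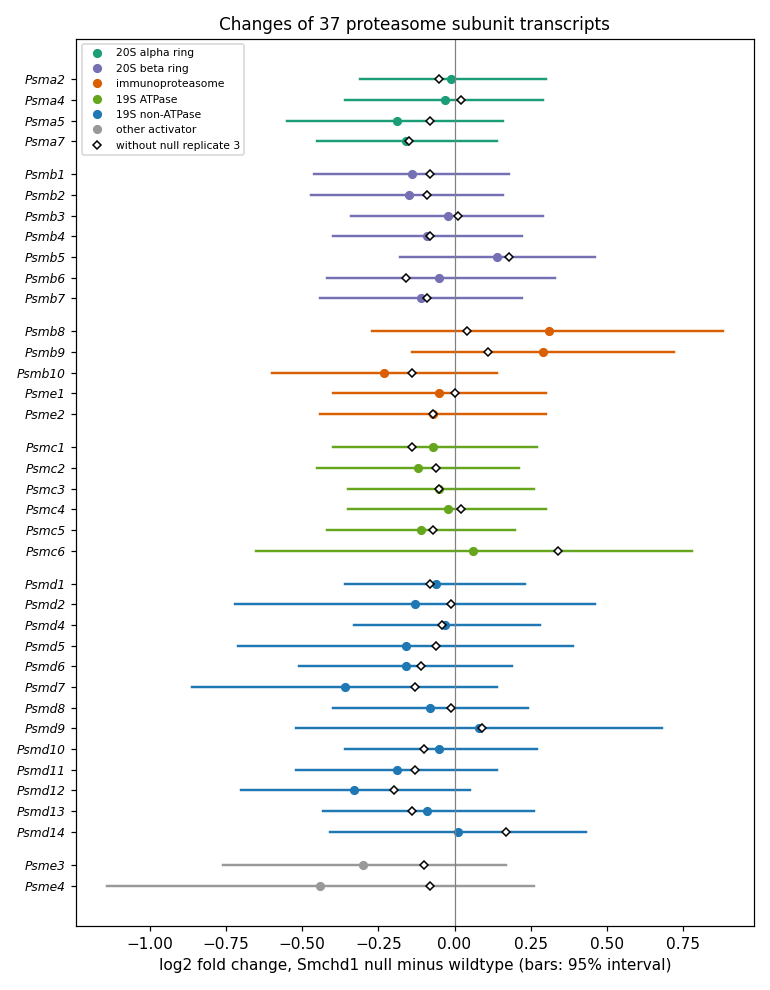
Log2 fold change (Smchd1 null minus wildtype) of the 37 genes by class, with its 95% interval as a bar and the value without null replicate 3 as an open diamond. All 37 intervals include 0, and the diamonds of Psmb8, Psmd7, Psme3 and Psme4 lie nearer 0 than their points.

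The remaining 6 members had no tested probe. Psma1, Psma3, Psma6, Psmb11 and Psmd3 were not detected on any array by their probes, 2 for Psmd3 and 1 for each other gene. Psma8 was detected on 1 wildtype array. A probe below detection does not show that its transcript is absent, and the cause was not looked into. Psma1, Psma3 and Psma6 are constitutive alpha ring subunits and Psmd3 is a subunit of the 19S lid, whereas Psmb11 is the thymic catalytic subunit and Psma8 a testis form of the alpha ring.

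Genes that assemble and serve the proteasome moved as little. Of 10 tested assembly factors and cofactors outside the rule, 1 was higher and 9 lower, with a median of -0.11 and none called, and without null replicate 3 the median was 0.04 with 6 higher. The smallest p-values were those of the inhibitor Psmf1, at -0.20 (SE 0.19), and of Shfm1, the smallest cap subunit, at 0.14 (SE 0.13), both with an adjusted p of 0.934. Of 17 tested genes of ubiquitin supply, shuttling and Nrf1 activation, 4 were higher and 13 lower, with a median of -0.10 and none called, or -0.03 without null replicate 3. Nfe2l1, whose product Nrf1 raises proteasome gene transcription when the proteasome is inhibited, had 8.87, 9.22 and 9.01 in Smchd1 null, against 8.67, 8.88 and 8.90 in wildtype (log2 fold change 0.22, SE 0.16). Its relative Nfe2l2 had -0.34 (SE 0.26).

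The genes downstream of the immunoproteasome in MHC class I presentation leaned the other way. Of 14 tested genes of peptide loading and its regulators, 10 were higher and 4 lower, none was called, and the median was 0.33, where that of all genes was -0.01. Without null replicate 3 the median was 0.10, with 9 higher. The median of the list, taken on each array against the wildtype mean, was -0.01, 0.19 and 0.60 in null arrays 1 to 3, beside -0.07, 0.08 and -0.01 in the wildtype arrays. B lineage markers were highest on the same null array 3, and their part in the list's values was not tested.

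H2-D1, a class I heavy chain, had 10.51, 10.92 and 11.28 in null, against 10.29, 10.10 and 10.20 in wildtype, all null arrays higher (log2 fold change 0.71, SE 0.21, unadjusted p = 0.0115, limma adjusted p = 0.934), and 0.52 (SE 0.16) without null replicate 3. It had the smallest p of the list and was the 1 gene of the 14, or 7.14%, whose groups did not overlap. Among all genes, 9.64% did not overlap. H2-D1 had 2 tested probes, and only the brightest is given. Tap1, which shares its promoter interval with Psmb9, had 5.54, 6.18 and 6.06 in null, against 5.15, 5.80 and 5.55 in wildtype (0.43, SE 0.24). Its groups overlapped. The highest null array of Tap1 was replicate 2, close to replicate 3, where Psmb9 was highest in replicate 3. The Tap1 probe was dim and detected on 5 of the 6 arrays, and the lowest detected signal of an array was 5.08 to 5.19. The order of its null arrays is therefore uncertain. Tap2, chosen after its values were seen as the partner of Tap1, had 9.29, 9.36 and 10.11 in null, against 9.32, 9.12 and 9.15 in wildtype, the order of null arrays found for Psmb8.

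**Figure D5:**
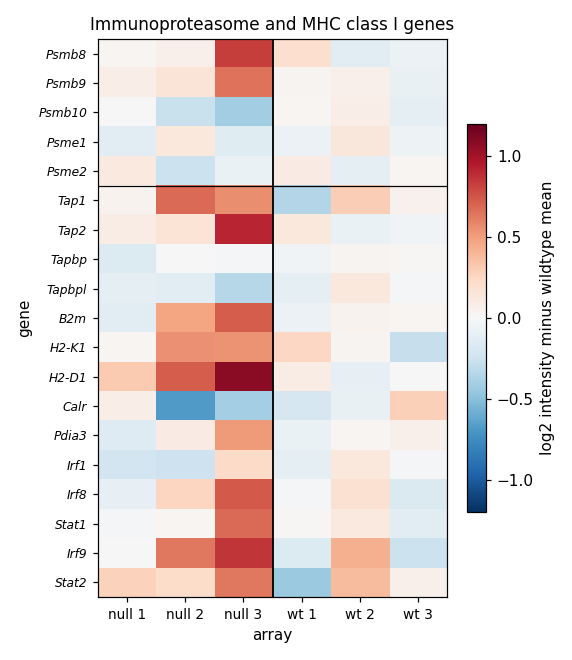
Log2 intensity, minus the mean of the wildtype arrays, of the 5 immunoproteasome genes (above the line) and of 14 genes of MHC class I peptide loading and its regulators on the 3 Smchd1 null and 3 wildtype (wt) arrays. Null replicate 3 holds the highest values of Psmb8, Psmb9, Tap2 and H2-D1, whereas Psmb10, Psme1 and Psme2 are not raised there.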

How the data were processed

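Per the file headers, GenomeStudio 1.8.0 wrote the deposited intensity of each probe, a linear mean over its beads that had not been normalized, together with the bead count and the standard deviation over beads. The deposited detection values are a fraction in the probe table, 1 minus the detection p-value, and the detection p-value itself in the other deposited tables. The authors' deposited log2 values were made with limma's neqc, per the deposited readme, and the submitters' processing notes name limma 3.12.1 and R 2.15.1. They differed from the log2 values computed here by at most 5e-09.

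From these, neqc (offset 16) of limma 3.58.1 in R 4.3.3 computed background-corrected, quantile-normalized log2 values for 45281 probes, using 974 control probes, of which 936 were negative controls. The 15878 probes with detection p under 0.05 on at least 3 arrays were fitted together by lmFit and eBayes, 3 null against 3 wildtype arrays, two-sided, without covariates, with Benjamini-Hochberg adjustment over all probes. The 95% intervals come from the moderated fit. The members and lists were chosen with earlier results of these data known. Named were all immunoproteasome and catalytic subunits, the 3 members with the smallest p of each other class, members whose groups did not overlap, and the 2 genes with the smallest p of each other list, and the remaining members are given by their values. The number of arrays limits the precision. On 20 simulated data sets of 15878 probes, 33% of changes of 1 on the log2 scale were called. It was 79% for changes of 2 and 0.299% for changes of 0.5. These rates are for simulated probes as a whole and not for the proteasome genes. The median standard error was 0.19 over all tested probes and 0.14 over the members. Nor need the rates hold for the real arrays, where null replicate 3 stood apart. There the median SD of all genes was 0.26 in null and 0.14 in wildtype. Same-numbered arrays did not deviate together (r of -0.01 to 0.04), so the replicate number was not used as a block. Alternatives covered background correction, scaling, detection filters, moderation, array weights, the block, the choice of probe and leaving out each array.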

Additional observations from a re-analysis of the deposited data

How the results depend on the processing

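No proteasome member was called under any of the 20 alternatives, and of 418 values of 22 named members 408 kept their direction and their side of the threshold. The authors' deposited values, the detection filters, the moderation setting and the block left the log2 fold changes of the named members as they were. Under these alternatives the agreement in direction was fixed in advance, so the 408 overstates what was put to a test. The count of all probes called, 9, was 3 without background correction, 5 with normexp fitted without the negative controls, 56 with scaling to the median of all probes, 2 with detection p under 0.01 on all 6 arrays, 52 with array weights, which counted Smchd1 null replicate 3 at 0.16, 14 at an adjusted p under 0.1, and 2 with the replicate block, and it ran from 2 to 41 with 1 array left out, the 41 without Smchd1 null replicate 3. The block changed no call of a member. Scaling to the median of all probes shifted the median of all tested probes to -0.18, and with it the medians to -0.29 for all members, -0.27 for the immunoproteasome, -0.31 for the alpha ring, -0.28 for the constitutive beta ring, and -0.29 for both the ATPases and the non-ATPases. It also turned Psmb5 to -0.08 and left 2 members whose groups did not overlap, against 3 with the mean of all detected probes, neither a larger share than that of all genes. Scaling to the median of the tested probes, added after the data were seen, gave -0.14 for the alpha ring and -0.13 for the ATPases. Array weights gave 0.04 for both the immunoproteasome median and Psme1, and detection on at least 1 array, which adds Psma8, gave -0.16 for the alpha ring. With 1 array left out, which can only keep or raise a count of groups that do not overlap, 7 to 16 members stood apart where 15.3% to 27.2% of all genes did, the median of all members lay between -0.13 and -0.07 and that of the beta ring between -0.12 and -0.05, and the genes that turned direction ran from -0.09 to 0.02 for Psma4, from -0.16 to 0.03 for Psmb6, from -0.14 to 0.01 for Psmc1, from -0.13 to 0.02 for Psme1 and from -0.17 to 0.02 for Psme2. The causes were not tested. Dim probes such as those of Psmc6, Psmd2 and Psmd9 limit what can be seen of these genes.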
